A study of Mus musculus with 4 samples.

Results

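Cells of the myeloid lineage carry receptors that dampen activation, and 8 genes of this inhibitory system were followed in splenic Esam dendritic cells (DC) with and without the transcription factor Runx3. Of these genes, 6 encode receptors with immunoreceptor tyrosine-based inhibitory motifs (ITIMs), namely Pilra, Cd72, Sirpa, Lair1, Cd300a and Cd300lf. The other 2 encode the phosphatases that such receptors recruit, Ptpn6 (SHP-1) and Inpp5d (SHIP-1). A gene was represented by the probe sets annotated with its symbol alone, the brightest one over all arrays if there were several. Each of the 8 had exactly 1 such probe set, among 19938 genes with a probe set of their own, and all 8 were among the 9894 genes tested because they reached a log2 value of 6.5 on at least 1 array.

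The samples were sorted spleen cells from 4 male mice per the labels, all 6 weeks old, with 1 array per mouse. The cells were gated as CD11c and MHC class II positive and sorted by Esam, CD4 and CD8. The 2 wt mice are labelled DCRunx3 +/+ and the 2 cKO mice DCRunx3 -/-, the latter from a cross of Runx3fl/fl with CD11c-Cre mice. Each litter gave 1 wt and 1 cKO mouse. Cre was driven by the CD11c promoter, so that the deletion was not limited to Esam DC, and the labels do not say whether the wt littermates carried floxed alleles or Cre. The question asked of these arrays was which genes of Esam DC respond to loss of Runx3. Values are log2 values from robust multichip averaging (RMA), differences are cKO minus wt on that log2 scale, and errors of group means are SD with n = 2.

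An ITIM is a short tyrosine-containing sequence in the tail of a receptor. When Src family kinases phosphorylate it, it binds the SH2 domains of SHP-1, which removes phosphate from tyrosines of nearby signalling proteins, or of SHIP-1, which removes a phosphate from the membrane lipid PIP3. In this way the receptors set a brake on signals that run through ITAM adaptors and Syk. Many ITIM receptors have activating relatives encoded beside them that bind similar ligands, as with Pilra and the Pilrb genes or Cd300a and other Cd300 genes. In DC, SIRP-alpha, the product of Sirpa, binds CD47 and serves as a surface marker of the conventional type 2 subset.

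The identity of the samples was examined before the values were compared. All 10 genes listed as markers of Esam-high type 2 DC were above the limit. The list also holds Flt3, which the study counts among genes specific to Esam-low DC, and Zbtb46, which it calls specific to conventional DC. Esam itself was at 10.42 and 10.10 in wt and 10.60 and 10.64 in cKO. Of the 10, 5 were higher and 5 lower in cKO. The groups did not overlap for 5 of the higher and 4 of the lower, beside 16.4% and 23.7% of all tested probe sets. The differences of the 10 ran from -0.28 (Zbtb46) to 0.75 (Itgam), both named after their values were seen. The Runx3 probe set was at 11.44 ± 0.10 in wt and 11.46 ± 0.01 in cKO, but no source used here says whether it lies within the floxed segment, so it is no check of the genotype labels. The litter 1 arrays had Xist at 12.75 and 12.78 against 5.15 and 5.19 for litter 2, and the Y-linked gene Kdm5d ran the other way, so each genotype held 1 array of each kind although the labels call all mice male. Some marker lists of other cells moved with genotype. They hold Irf8 (type 1 DC list) and Cx3cr1 (monocyte list), which the study counts among genes specific to Esam-low DC. It reports both as raised in Esam-high DC that lack Runx3, checked by RT-qPCR or flow cytometry. On the linear scale the summed level of 10 conventional type 1 DC markers was 10132 to 11538 in wt and 20645 to 22266 in cKO. Of these 10, 9 were higher in cKO, Xcr1, Clec9a and Cadm1 among them, and 1 was lower. The same sum was 8702 to 10903 in wt and 13158 to 14372 in cKO for 10 macrophage markers, C1qa, C1qb and C1qc among them, and 12748 to 13279 and 19247 to 19426 for 9 blood monocyte markers, among them Ccr2, Ace and Treml4. All 8 neutrophil markers, with S100a8, S100a9 and Ly6g, and 7 of the 8 T and NK cell markers with a probe set, Cd3e, Cd3g and Cd3d among them, stayed below the limit on every array. Of 7 plasmacytoid DC markers with a probe set, 5 were higher and 2 lower in cKO, with Siglech and Ccr9 higher and Bst2 differing by -0.12. Differences over these 7 ran from -0.43 to 2.68, and the summed level was 2872 to 3251 in wt and 3550 to 3797 in cKO. The part of these cell markers in the differences given here was not tested.

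The promoters of the 4 receptor genes with the widest gaps between genotypes are shown with the letters that match a Runx motif or a motif of PU.1, a factor of myeloid and B cells. Each runs from 250 bases before to 50 bases after the start of the gene, 5′ to 3′ on the gene's strand, and comes from RefSeq (GRCm38.p6). The windows are chr5:137836229-137836528 on the minus strand for Pilra, chr11:115133943-115134242 on the minus strand for Cd300lf, chr4:43454577-43454876 on the minus strand for Cd72 and chr11:114889791-114890090 on the plus strand for Cd300a. Capitals mark TGTGGT (Runx) or GAGGAAGT (PU.1) on either strand, and the motifs do not overlap each other.

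Pilra: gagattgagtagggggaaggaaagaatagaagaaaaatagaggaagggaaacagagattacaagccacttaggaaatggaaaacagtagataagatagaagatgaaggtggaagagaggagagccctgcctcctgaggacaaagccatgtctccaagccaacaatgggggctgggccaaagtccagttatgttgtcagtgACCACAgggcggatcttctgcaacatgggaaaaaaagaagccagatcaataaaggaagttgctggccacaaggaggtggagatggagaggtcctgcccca
Cd300lf: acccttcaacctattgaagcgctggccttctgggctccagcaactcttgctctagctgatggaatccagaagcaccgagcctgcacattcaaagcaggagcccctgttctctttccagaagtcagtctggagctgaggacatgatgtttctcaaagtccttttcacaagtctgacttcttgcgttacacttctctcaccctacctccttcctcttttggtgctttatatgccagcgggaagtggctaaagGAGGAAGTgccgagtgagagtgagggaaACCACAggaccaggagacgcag
Cd72: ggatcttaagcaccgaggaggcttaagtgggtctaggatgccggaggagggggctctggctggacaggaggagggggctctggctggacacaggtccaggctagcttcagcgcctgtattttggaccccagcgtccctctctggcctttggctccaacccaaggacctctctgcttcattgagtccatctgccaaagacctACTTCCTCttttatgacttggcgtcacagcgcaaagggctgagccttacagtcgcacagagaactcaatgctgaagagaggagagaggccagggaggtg
Cd300a: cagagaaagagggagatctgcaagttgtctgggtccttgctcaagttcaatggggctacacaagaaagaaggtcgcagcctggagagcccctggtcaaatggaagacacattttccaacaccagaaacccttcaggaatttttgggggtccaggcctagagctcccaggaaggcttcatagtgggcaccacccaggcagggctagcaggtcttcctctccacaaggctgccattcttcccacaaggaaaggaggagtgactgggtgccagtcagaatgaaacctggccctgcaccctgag

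Pilra held the Runx letters on the opposite strand at -50 to -45 from its start, and Cd300lf held them on the opposite strand at 29 to 34. Cd300lf also had the PU.1 letters at 1 to 8, and Cd72 had them on the opposite strand at -49 to -42. The Cd300a window held neither. Among the 7 members in the promoter table, 2 held the Runx letters, beside 16.8% of the 32851 promoters of the same length. The PU.1 letters stood in 3 of the 7, Inpp5d being the other at -20 to -13, beside 3.2% of all promoters. Sirpa was not among the promoters matched. Such a match describes the letters of the window only.

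Pilra had the widest difference of the 8 genes. Its product, paired immunoglobulin-like type 2 receptor alpha, binds sialylated glycoproteins and recruits SHP-1 in myeloid cells. Pilra was at 9.11 and 9.04 on the wt arrays and at 9.62 and 9.60 on the cKO arrays. Both cKO arrays lay above both wt arrays with a gap of 0.49 between the groups, which was wider than the spread within either group. The group means were 9.07 ± 0.05 and 9.61 ± 0.02, which puts cKO 0.54 above wt (standard error 0.08, 95% interval 0.31 to 0.77), or 1.45-fold. Within litter 1 the difference was 0.52 and within litter 2 it was 0.56. Over all 18889 probe sets the adjusted p was 0.240 in limma, so Pilra did not pass at 0.05 (unadjusted p = 0.00268), nor did it reach the fold of 1.5 that the study's thresholds ask for. In RNA from many cells, fewer cells of a type and less RNA per cell cannot be told apart, which holds for every value here.

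The activating partners of Pilra were examined after their values were seen. Pilrb1 and Pilrb2, which follow Pilra in the RefSeq gene order and encode receptors that signal through the adaptor DAP12, differed by -0.10 (standard error 0.15) and -0.03 (0.14). Their wt and cKO arrays overlapped. Pianp, which encodes a neural protein bound by the Pilra receptor, was at 6.76 and 6.86 in wt and at 7.59 and 7.67 in cKO, 1.77-fold higher (limma, adjusted p = 0.202). Pianp passed the study's thresholds (at least 1.5-fold, with p no higher than 0.05 before adjustment in the one-way test of its methods).

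**Figure D1:**
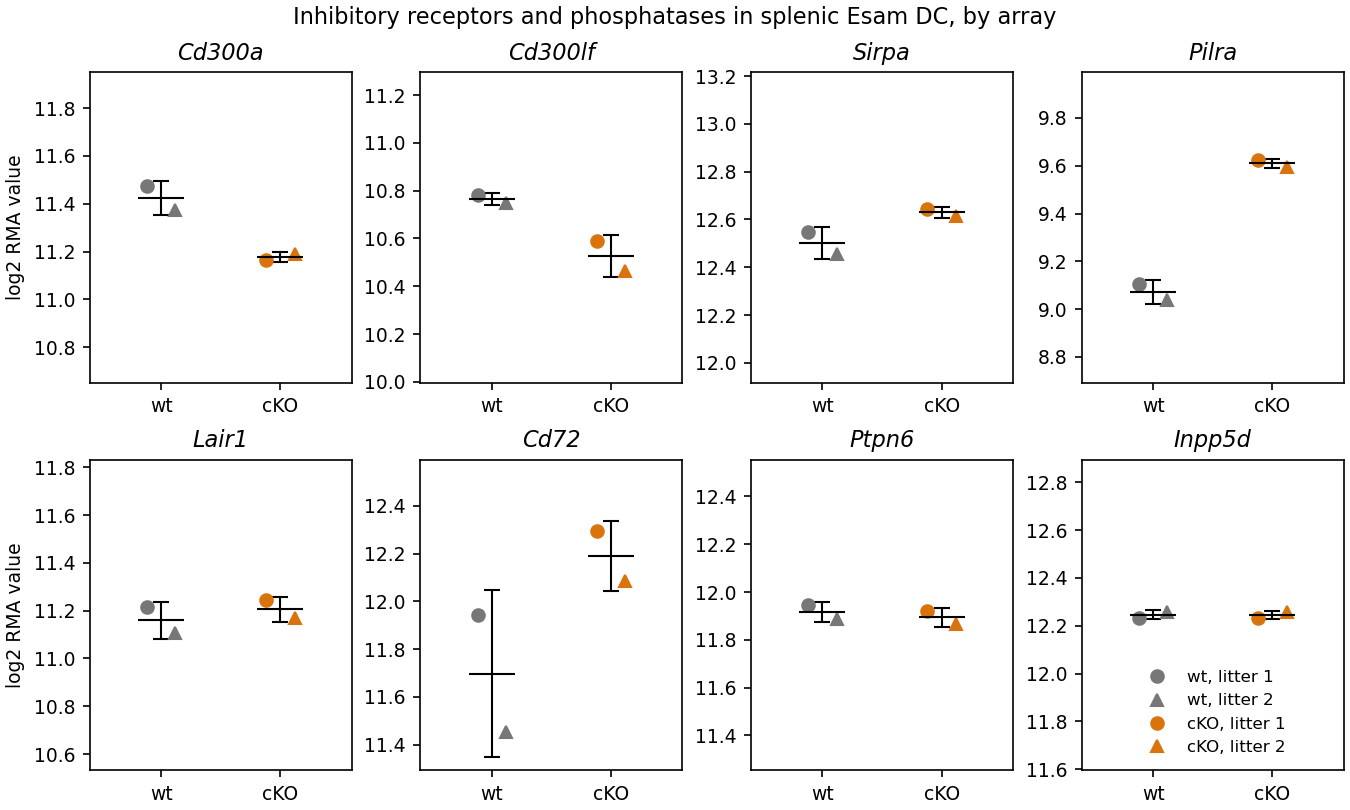
Log2 RMA value of each of the 8 genes on each array, with 1 panel per gene, every y axis spanning the same width on the log2 scale. Points are circles for litter 1 or triangles for litter 2, in grey for wt or orange for cKO, and the bars give the mean and SD of 2 arrays. Pilra and Cd72 are higher and Cd300a and Cd300lf lower in cKO, and the Ptpn6 and Inpp5d points of the genotypes sit at the same height.

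Cd72 encodes a C-type lectin-like receptor of B cells, also found on some DC, that recruits SHP-1 and binds the semaphorin CD100. It was at 11.94 and 11.45 in wt and at 12.29 and 12.09 in cKO. The cKO arrays were the higher ones, but the wt arrays differed from each other by more than the gap of 0.14 between the groups. The means were 11.70 ± 0.35 and 12.19 ± 0.15, so that cKO was 0.49 above wt (standard error 0.20, 95% interval -0.06 to 1.04; limma, adjusted p = 0.572). Within litters it was 0.35 and 0.63. The value leaned on the wt array of litter 2: without it the difference was 0.24, and without the wt array of litter 1 it was 0.74.

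Because Cd72 is a B cell gene, the B cell markers were set beside it. Of 10 markers 9 had a probe set of their own and 7 were tested, of which 5 were higher and 2 lower in cKO. The defining B cell factors Pax5 and Ebf1 were below the limit on all arrays, between 5.24 and 6.24. The summed linear level of the 9 markers ran from 2713 to 3649 in wt and from 3830 to 4439 in cKO, lowest in the wt mouse of litter 2, the array on which Cd72 was also lowest. Cd79b, a signalling chain of the B cell receptor, was at 10.31 on that array and at 11.25 and 11.06 in cKO, with all 4 arrays in the same order as for Cd72. Ms4a1, which encodes CD20, was at 9.59 and 9.05 in wt and at 9.95 and 9.38 in cKO, and Cd79a, the partner chain of Cd79b, at 7.37 and 7.01 and at 7.56 and 7.69. Fcer2a, the low-affinity IgE receptor, and Fcrla passed the study's thresholds at 2.04-fold and 2.32-fold higher, though not with the litter as a block. Blk, a B cell kinase of the Src family, differed the other way, at 7.40 and 8.22 in wt and 6.41 and 6.42 in cKO. The complement receptor gene Cr2 differed by -0.22 with overlapping groups, and Cd22, an ITIM receptor of B cells, was at 11.68 and 11.47 in wt and 11.25 and 11.21 in cKO. The part of B cell RNA in the Cd72 value was not tested.

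**Figure D2:**
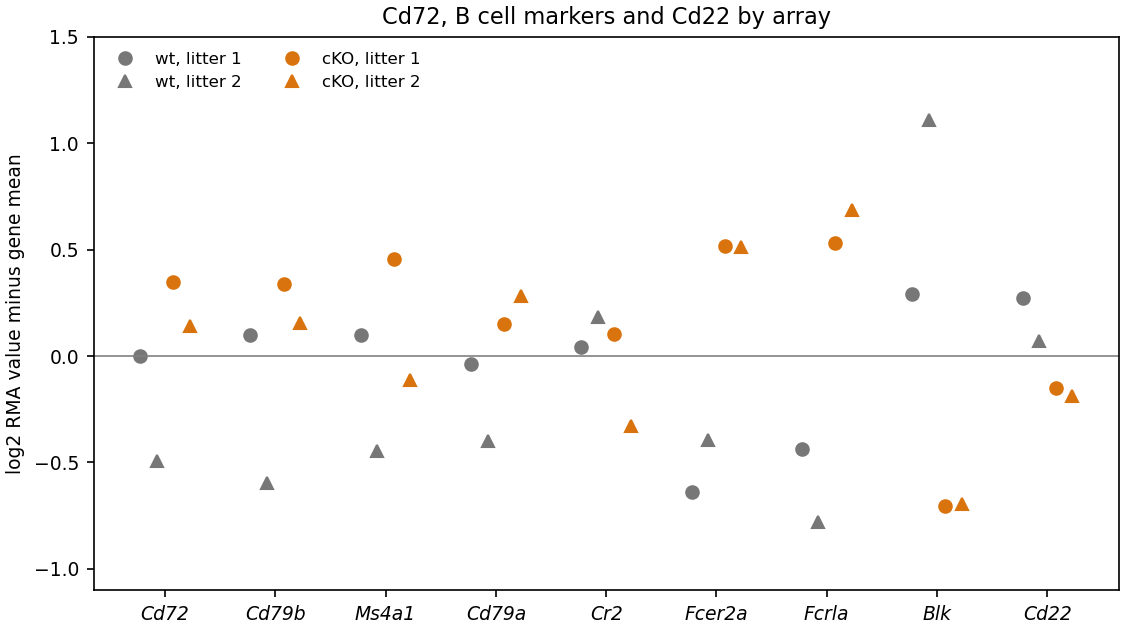
Cd72, the 7 tested B cell markers and Cd22 on each array, as log2 RMA value minus the gene's mean over the 4 arrays. Symbol shape gives the litter (circle 1, triangle 2) and colour the genotype (wt grey, cKO orange). Cd72, Cd79b, Ms4a1 and Cd79a have their lowest point on the wt array of litter 2, while Blk and Cd22 are higher in wt.

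Sirpa was slightly higher in cKO, at 12.55 and 12.46 in wt against 12.65 and 12.61 in cKO. The groups were apart by 0.07. The difference was 0.13 with a standard error of 0.09 (95% interval -0.11 to 0.37; limma, adjusted p = 0.751), or 1.09-fold, and it was 0.08 without the wt array of litter 2. Cd47, the ligand of the Sirpa product, differed by -0.01 with a standard error of 0.08. The activating relatives Sirpb1a, Sirpb1b and Sirpb1c had no probe set of their own, so they are not given.

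Lair1 encodes a receptor for collagens and for the complement protein C1q. It was at 11.21 and 11.11 in wt and at 11.24 and 11.17 in cKO, and the groups overlapped. The difference of 0.05 (standard error 0.09, 95% interval -0.21 to 0.30) was smaller than the spread between the wt mice. Its collagen ligand genes Col1a1, Col1a2 and Col3a1 were below the limit on all arrays, whereas the 3 C1q chain genes were higher in cKO. C1qb was at 9.64 and 9.66 in wt and at 10.53 and 10.43 in cKO, 1.78-fold higher and past the study's thresholds (limma, adjusted p = 0.184). C1qc and C1qa differed by 0.82 and 0.58 and did not pass them. The C1q genes are also among the macrophage markers given with the sample checks.

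Cd300a and Cd300lf, receptors for phospholipids exposed on dying cells, were both lower in cKO and by nearly the same amount. Cd300a was at 11.47 and 11.37 in wt and at 11.16 and 11.19 in cKO. The groups were apart by 0.18, and the difference was -0.24 with a standard error of 0.09 (95% interval -0.49 to -0.00), that is 1.18-fold lower, with -0.31 in litter 1 and -0.18 in litter 2. Its unadjusted p in limma was 0.0478 and its adjusted p 0.525. Cd300lf was at 10.78 and 10.75 in wt and at 10.59 and 10.46 in cKO. The groups were apart by 0.16, and the difference was -0.24 with a standard error of 0.09 (95% interval -0.49 to 0.01; limma, adjusted p = 0.546), with -0.19 and -0.28 in the litters. Both intervals stayed inside a 1.5-fold change in either direction, and neither gene passed a test after adjustment.

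In the RefSeq gene order Cd300a and Cd300lf stand near opposite ends of a run of Cd300 genes, whose other members were looked at after their values were seen. Cd300c2 and Cd300ld, from within the run, differed by -0.13 and -0.07, and Cd300lb and Cd300e by 0.21 and 0.22. Only Cd300c2 had groups that did not overlap. Their adaptor genes Tyrobp (DAP12) and Fcer1g differed by 0.07 and 0.13, with standard errors of 0.09 and 0.14.

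The phosphatases were the least different of the 8 genes. Ptpn6 was at 11.94 and 11.89 in wt and at 11.92 and 11.87 in cKO, and Inpp5d at 12.23 and 12.26 in wt and again at 12.23 and 12.26 in cKO. In both genes the groups overlapped and the arrays sorted by litter rather than by genotype. The differences were -0.02 for Ptpn6 (95% interval -0.25 to 0.21) and -0.00 for Inpp5d (95% interval -0.22 to 0.22), with standard errors of 0.09 and 0.08. As ratios of cKO to wt these intervals run from 0.838 to 1.16 and from 0.856 to 1.17, so that smaller differences were not detectable with 2 mice per group. The related enzymes Ptpn11 (SHP-2) and Inppl1 (SHIP-2), named after their values were seen, differed by -0.03 and -0.07.

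**Figure D3:**
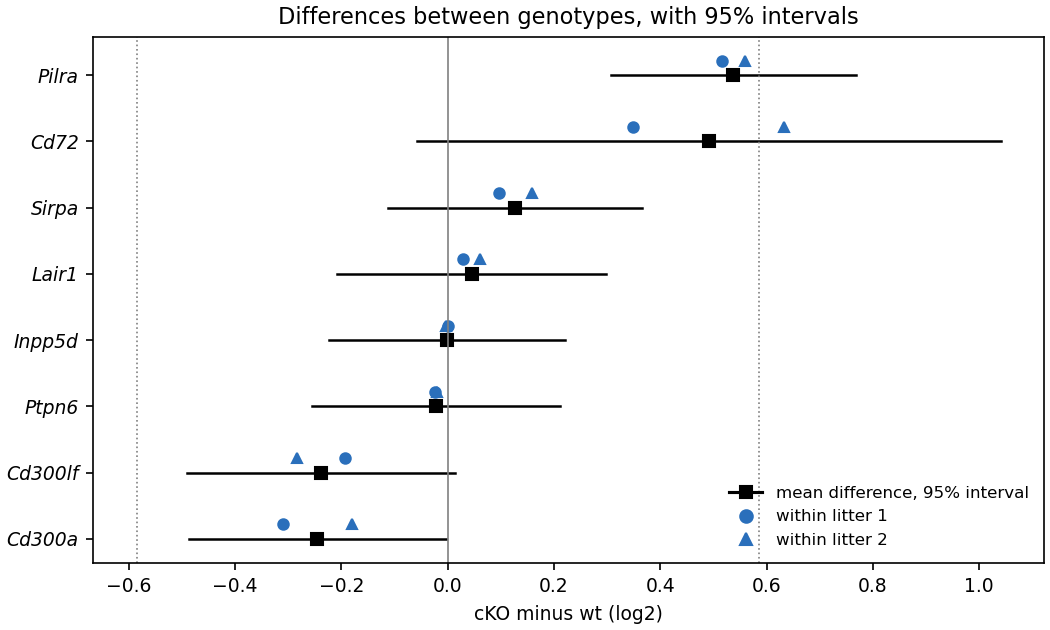
Differences between genotypes for the 8 genes (cKO minus wt, log2). Squares are the mean differences with limma's 95% intervals, circles and triangles the differences within litter 1 and litter 2, and dotted lines mark 1.5-fold in either direction. The Pilra interval alone lies wholly above 0, that of Cd300a ends just below 0, and the intervals of Ptpn6 and Inpp5d are centred on 0 and stay inside the dotted lines.

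By count, 4 of the 8 genes were higher and 4 lower in cKO. The groups did not overlap for 5 genes, 3 higher (Pilra, Cd72 and Sirpa) and 2 lower (Cd300a and Cd300lf), and among all tested probe sets 16.4% were apart upward and 23.7% downward, 40.1% in all. No member passed limma's adjusted test, where the share over all probe sets was also 0.0%. Unadjusted p-values under 0.05 were found for Pilra (higher) and Cd300a (lower), 2 of 8, beside 9.38% of all probe sets, 4.57% upward and 4.81% downward. The same 2 genes reached this level in the one-way test of the methods, beside 8.24% of all probe sets. With 8 genes these shares are too coarse to set the members apart from the background. No member differed by 1.5-fold or more, as 3.41% of all probe sets did, and so none passed the study's thresholds, which 1.41% of probe sets did (0.9% upward and 0.514% downward). The median difference was 0.02 for the members and -0.02 over all probe sets tested, and the median of the absolute differences was 0.183 and 0.112.

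The spread between the mice was small for most members. The median SD of the wt arrays was 0.0577 over the 8 genes and 0.115 over all probe sets tested, Cd72 being the member with the highest SD. The members lay between 9.04 and 12.65, while a value of 6.5 on 1 array sufficed for testing, so these medians are not at like levels. The sign of the difference was the same in both litters for 7 of the 8 genes, Inpp5d being the exception. These include the small differences of Ptpn6 (-0.02 and -0.02) and Lair1 (0.03 and 0.06). Litter itself gave no call among the members: 7 of 8 were lower in litter 2, and the litters were apart for 3 (Lair1, Ptpn6 and Inpp5d) beside 35.9% of all probe sets. The shares of all probe sets with the same sign in both litters, or lower in litter 2, were not counted. In limma without genotype in the fit, the smallest unadjusted p of litter was 0.246 (Cd72), where 5.45% of probe sets were under 0.05. In that fit 5 probe sets of the whole table (0.0265%) passed the adjusted test of litter. With genotype as a term, limma gave Cd72 an unadjusted p of litter of 0.0487. The smallest adjusted p among the members was then 0.638. The litters also differ in Xist and Kdm5d, so litter and this sex-linked split cannot be told apart.

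Genes with a like pattern over the 4 arrays were sought by the distance between log2 values, each centred on the gene's own mean. Nearest to Pilra were Slc20a2, a phosphate transporter, Litaf, an endosomal membrane protein, and Slc8b1, a mitochondrial exchanger, at distances of 0.0656, 0.0662 and 0.0710, and 18 genes lay within 0.1. Nearest to Cd300a were Polr1a, Myd88 and Dipk1a, of which Myd88 is the adaptor of Toll-like receptors, and nearest to Cd300lf were Taf5l, Sars2 and Polh. Within 0.1 of these lay 306 and 284 genes, so that the patterns of Cd300a and Cd300lf were shared with many genes. With 4 arrays such a likeness is a description only.

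Around the members, 100 genes were listed by role, of which 75 were tested, 16 were below the limit and 9 had no probe set of their own. Of the 75, 6 passed the study's thresholds and all 6 were higher in cKO, that is 8.0%, whereas 1.85% of the 9894 genes passed, 1.39% upward and 0.455% downward. All 6 stayed at least 1.5-fold higher whichever array was left out. No fit without an array kept all 6 past the p as well, with the 1 residual degree of freedom that 3 arrays leave. When litter entered as a block, 6 genes passed again, now 5 higher and 1 lower, because Clec7a no longer passed and Trem1 did. None of the 75 passed limma's adjusted test over all probe sets. The lists were written with results of these data known, so the share is a description.

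Of 24 other ITIM receptors 17 were tested, 7 higher and 10 lower, with a median difference of -0.07. Past the study's thresholds were Clec12a, a C-type lectin receptor for uric acid crystals, and Fcgr2b, the inhibitory receptor for IgG that acts through SHIP-1. Clec12a was at 8.85 and 9.15 in wt and at 10.46 and 10.56 in cKO, 2.85-fold higher (limma, adjusted p = 0.158), and Fcgr2b at 8.95 and 9.30 in wt and at 10.06 and 10.30 in cKO, 2.08-fold higher (adjusted p = 0.243). With 1 probe set per gene, adjusted over genes, Clec12a passed (adjusted p = 0.0350), as did 42 of 9894 genes (0.424%), and none of the 8 members did, Pilra being closest at 0.0752. Ceacam1 differed by 0.47, while Clec4a2 (-0.75), Siglecg (-0.29) and Cd22 (-0.34) were lower in cKO without passing. Pirb, which shares sequence with the Pira genes and is therefore uncertain, differed by 0.03.

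Of 24 activating partners and ITAM adaptors 17 were tested, 10 higher and 7 lower, with a median of 0.13. Clec7a, the beta-glucan receptor Dectin-1, passed at 1.86-fold (not with the litter block) and Treml4 at 1.63-fold, both higher in cKO. Clec5a differed by 0.40, but only its cKO array of litter 1 (6.54) was above the limit of 6.5. Trem1 (-0.61) and Hcst (-0.28), which encodes DAP10, were lower without passing, although Trem1 passed with the litter block. The cKO array of litter 1 was below the limit for Trem1 (6.35). Tarm1, named after its values were seen, was 2.84-fold higher in cKO, but its wt arrays stood at 10.50 and 8.79 and its log2 difference had a standard error of 0.63.

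Of 21 kinases and proximal adaptors 17 were tested, 9 higher and 8 lower, and none passed. Pag1, a membrane adaptor that recruits the Src inhibitor Csk, differed by 0.42 and Src by 0.41. Blk (-1.40), Lat2 (-0.39) and Card9 (-0.26) were lower in cKO. Both wt arrays of Src (6.17 and 6.17) and both cKO arrays of Blk (6.41 and 6.42) were below the limit of 6.5. Of 19 other phosphatases and adaptors 17 were tested, 8 higher and 9 lower, and none passed. Ubash3b, a phosphatase that acts on Syk and related kinases, differed by 0.46, Ptpn7 by 0.58 and Dok3 by 0.26, and Sh2d1b1, Grb2 and Inpp4b by -0.15, -0.14 and -0.24. The wt array of litter 2 was below the limit for Ptpn7 (6.36). The median absolute difference of this last list was 0.08, below that of the members.

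Of 12 ligand genes 7 were tested, 5 higher and 2 lower, with a median of 0.58. C1qb and Pianp passed the study's thresholds, as given with Lair1 and Pilra, and C1qb also passed with 1 probe set per gene (limma, adjusted p = 0.0443). Sema4d, the CD100 ligand of Cd72, differed by 0.04, and Clec4g by -0.08.

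**Figure D4:**
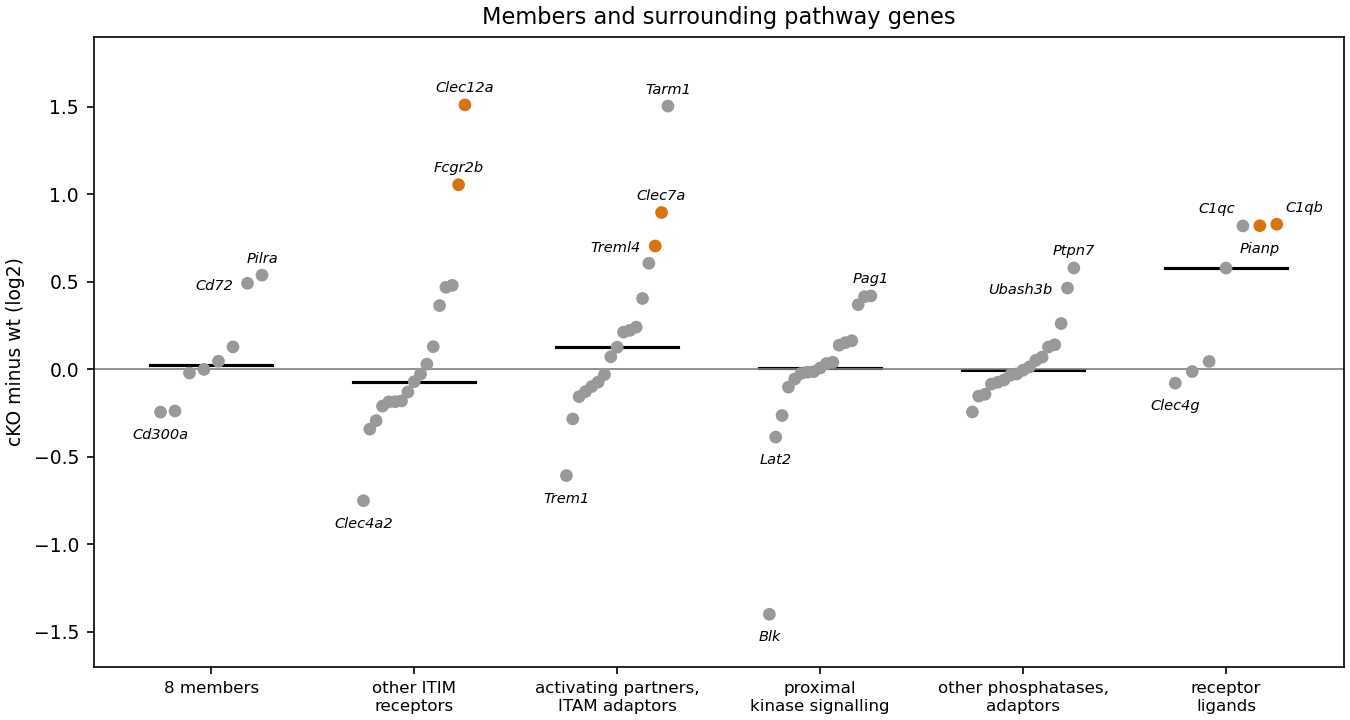
Difference between genotypes (cKO minus wt, log2) of the 8 genes and of 75 genes around them, 1 point per gene and 1 column per list, sorted by value. Black lines are list medians and orange points passed the study's thresholds. The members lie between -0.24 and 0.54 with none in orange, and the 6 orange points are all above 0, in the columns of ITIM receptors, activating partners and ligands.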

How the data were processed

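RNA of sorted Esam DC was labelled with biotin and hybridized to 4 Affymetrix arrays, 1 per mouse. The deposited values are log2 values that the authors computed by RMA with GC correction in Partek, background-corrected and normalized between arrays. Partek, RMA and mm9 are listed, without versions, in the submitters' processing notes. The study's methods name an exon array and the probe annotation is that of a gene-level array, so no probe set is read as an exon. Of 35399 probe sets 21789 carried 1 symbol, 1621 several and 11989 none, and 21698 matched a RefSeq gene by ID. Probe sets at 6.5 or above on at least 1 array (18889) were tested with limma 3.58.1 in R 4.3.3 (lmFit and eBayes, two-sided, Benjamini-Hochberg over all of them, threshold 0.05), which added 2.2 prior degrees of freedom to the 2 residual ones. The study's thresholds, an absolute fold of at least 1.5 with p of at most 0.05 in its one-way test of genotype, were applied to the same values. Array medians lay between 6.58 and 6.62, and correlations between arrays were 0.992 to 0.996. The number of arrays, 2 per genotype, limits the precision, and p-values refer to the spread between these mice.

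The labels place 1 wt and 1 cKO mouse in each of 2 litters, so the numbers pair the mice, and the deviations of mice of 1 litter from their group means correlated at 0.27 across probe sets. The methods use no litter term, so the litter block was an alternative, beside other filters, normalizations, tests and leaving out each array. The procedure was tested on simulated data. The 8 genes and all gene lists were chosen with earlier results of these data known. Genes were named by a rule: all 8 members, up to 4 genes per pathway list with the smallest limma p and up to 2 of the opposite direction, the 3 genes nearest in pattern to each of the 3 members with the smallest p, B cell markers, the first 3 of each other marker list, Runx3, Xist and Kdm5d. Of the Esam-high list only Esam was named by this rule. All other genes were named outside it with their values already seen, which is not said for each. Pirb, Sema4d, Tyrobp, Fcer1g, Klra17 and the collagen genes are among these. Promoters came from RefSeq (GRCm38.p6), whose coordinates are those of that table and not of the arrays' build.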

Additional observations from a re-analysis of the deposited data

How the results depend on the processing

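With the litter as a replicate block, which pairs the mice, 0 of the 8 members passed limma's adjusted test, as without it, and the smallest adjusted p was 0.312. The block changed no call among the members, and Pilra and Cd72 had an unadjusted p under 0.05 there. Among the pathway genes and B cell markers named as past the study's thresholds, Clec7a, Fcer2a and Fcrla were lost with the block and Trem1 was gained. The numbers of members passing limma's adjusted test and the study's thresholds, 0 in each, held under every alternative run, and the median difference ran from 0.00 to 0.05 when 1 array was left out. Directions held for Pilra (0.50 to 0.57), Cd72 (0.24 to 0.74), Sirpa (0.08 to 0.17), Cd300a (-0.30 to -0.19) and Cd300lf (-0.30 to -0.18). The near-zero differences changed sign when 1 array was left out: Ptpn6 was at 0.00715 without wt replicate 1 and 0.0052 without cKO replicate 2, Lair1 at -0.0085 without wt replicate 2, and Inpp5d at 0.0122 without wt replicate 2 and 0.00995 without cKO replicate 1. With each array left out in turn, Ptpn6 ran from -0.0507 to 0.00715, Lair1 from -0.0085 to 0.0998 and Inpp5d from -0.0144 to 0.0122. The 6 pathway genes past the study's thresholds became 11 (8 higher, 3 lower) when limma's p before adjustment replaced that of the methods, and 3 without wt replicate 1, 5 without wt replicate 2, 1 without cKO replicate 1 and 2 without cKO replicate 2. These counts without an array were chosen after seeing the data and rest on 1 residual degree of freedom, whereas the fold of all 6 genes stayed at 1.5 or above without each array. Signal over background could not be judged per probe set.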

Other observations

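Some genes of the surrounding lists were split by litter and not by genotype. Litter and the sex-linked split of Xist and Kdm5d cannot be told apart, so these values hold for either. Cd101, an ITIM receptor of myeloid cells, read 8.55 (wt) and 8.50 (cKO) for litter 1 but 9.16 and 9.07 for litter 2 (limma, unadjusted p of litter = 0.00272). Clec4g, a C-type lectin, read 6.83 and 6.76 for litter 1 but 7.48 and 7.39 for litter 2 (unadjusted p of litter = 0.00203). Fcrl5, an Fc receptor-like protein of B cells, ran the other way, with 7.11 and 6.78 for litter 1 but 5.74 and 6.34 for litter 2, the latter both below the limit of 6.5. None passed the adjusted test of litter, and all were named after their values were seen.

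Klra17, a Ly49 family receptor with related copies in the genome, stood at 9.36 and 8.13 in the wt mice, with the cKO mice at 8.50 and 8.73 between them.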
